A study of Mus musculus with 12 samples.

Results

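The 10 Notch pathway genes described here are the receptors Notch1, Notch2 and Notch3, the ligands Jag1, Jag2 and Dll1, the receptor antagonist Numb, and the transcriptional targets Hes1, Hey1 and Heyl. The rule that picks them names symbols and uses no measured value, but the set was proposed with earlier results of these data known. They were found through their Ensembl identifiers in the GENCODE M21 annotation of mouse genome build GRCm38. They are 10 of 55487 genes listed, of which 29620 had a count in any library and 14175 had enough counts to be tested. All 10 were tested, on raw counts of between 116 and 4254 in any 1 library.

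The RNA came from C2C12 myotubes. C2C12 is a mouse myoblast line. In low serum most of its cells leave the cell cycle and fuse into myotubes with many nuclei, while some stay single as quiescent reserve cells. All cultures were grown to near confluence and differentiated for 5 days in DMEM with 2% horse serum. The control group then received 4% horse serum for 24 h (libraries 1 to 6), and the other group received 4% STEM, a cell-free product secreted by human embryonic stem cells on their way to differentiation, for 24 h (libraries 7 to 12). STEM stood in place of horse serum, so the effect of adding STEM and that of removing serum cannot be told apart. All libraries came from 1 cell line with no genetic change named, and the labels do not say whether they came from separate cultures, so p-values measure the spread between these libraries, which may be technical. Because each library holds the RNA of a whole well, fewer cells of a type and less RNA per cell cannot be told apart.

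Notch signalling passes between cells in contact. A ligand of the Delta or Jagged family on one cell binds a Notch receptor on its neighbour, the receptor is cut by an ADAM protease and then by gamma-secretase, and its intracellular domain enters the nucleus, where it joins the DNA-binding protein RBPJ and turns on repressors of the Hes and Hey families. In skeletal muscle the pathway is known for keeping satellite cells quiescent and for holding back the differentiation of myoblasts, and Numb opposes it by targeting the receptor for endocytosis.

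Total counts were between 13285472 and 24536264 per library. On a principal component analysis, horse serum library 6 stood apart from the others, at -53.3 on the second component against 0.22 to 11.8 for the other 11 libraries. On the first component (44.2% of the variance), horse serum libraries 1 to 5 were at -35.5 to -24.6 and STEM libraries at 15.5 to 28.6. Library 6 was at 11.2 there, nearer to the STEM libraries than to the other horse serum libraries. It also had the lowest summed level of 12 myotube markers, 12797 CPM (read counts scaled to library size), against 18912 to 24756 CPM in the other libraries, so each result below that turns on it is also given without it. Myotube markers were present in every library, and 2 of the 12 were higher and 2 lower with STEM. By the same edgeR test, described below, 18.9% of all tested genes were higher and 17.4% lower. Some markers listed for other cells also differed between the groups. Of 8 proliferation markers, 7 were lower with STEM (summed level 740 to 1225 CPM in the control group, 553 to 668 CPM after STEM). Of 8 reserve and satellite cell markers, 5 were lower (377 to 550 CPM and 274 to 333 CPM), and Chrdl2 and Calcr were at 0 throughout. The remaining marker, Pax7, averaged 33.3 CPM in the control group against 32.4 CPM after STEM. Its log2 fold change was -0.04 (edgeR, adjusted p = 0.827), so it was neither higher nor lower by that test. Of 6 smooth muscle and pericyte markers, 2 (Acta2 and Pdgfrb) were higher with STEM (summed level 3594 to 4097 CPM and 4308 to 4727 CPM). Most of that sum was Acta2 and Des, and Des and Cspg4 were not called. Myh11 and Rgs5 had too few counts to be tested. Myh11 averaged 0.42 CPM in the control group and 0.33 CPM after STEM, and Rgs5 averaged 0.045 and 0.059 CPM. Endothelial markers summed to at most 1.001 CPM, with Kdr, Tie1 and Emcn at 0, and macrophage markers to at most 6.00 CPM, with Adgre1 at 0. The part of these shifts in the results below was not tested.

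To ask which Notch genes differed between STEM and horse serum, the counts of all tested genes were fitted with edgeR's quasi-likelihood test, and a gene was called at a Benjamini-Hochberg adjusted p of 0.05 or less. Of the 10 Notch genes, 5 were called, beside 36.4% of all tested genes. All 5 were higher with STEM (Jag1, Jag2, Dll1, Notch1 and Hey1), a direction called for 18.9% of all tested genes, and 0 were lower, a direction called for 17.4%. The same 5 genes were those whose 6 STEM libraries did not overlap the 6 horse serum libraries, which held for 17.2% of all tested genes. The median log2 fold change of the 10 genes was 0.44, and that of all tested genes was 0.01. Without horse serum library 6, Notch3 and Heyl were also called, which made 7 of 10 called and higher, beside 50.8% of all tested genes called and 26.3% called higher.

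**Figure D1:**
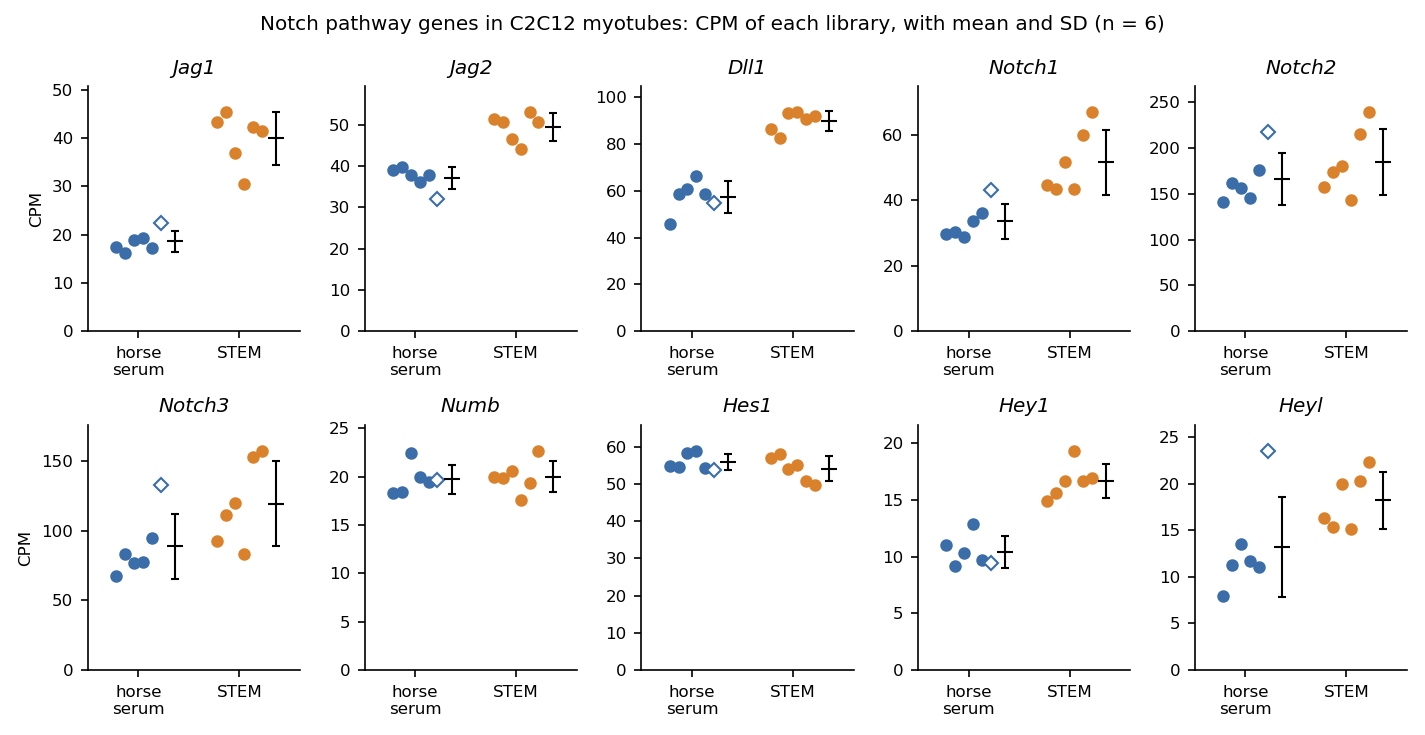
CPM of each Notch gene (vertical axes from 0, each gene on its own scale) in the 6 horse serum libraries (blue) and the 6 STEM libraries (orange), in library order from left to right, with the mean and SD of each group in black and horse serum library 6 as an open diamond. Jag1, Jag2, Dll1, Notch1 and Hey1 show no overlap between the groups, Hes1 and Numb overlap almost fully, and library 6 is the highest horse serum library for Jag1 and the 3 receptors and the highest of all 12 for Heyl.

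The 3 ligands were all higher with STEM. Jag1 (ENSMUSG00000027276, chr2:137081456-137116644, minus strand), which encodes a Jagged-family ligand, showed the largest difference of the 10 genes. Its levels in horse serum libraries 1 to 6 were 17.4, 16.2, 19.0, 19.3, 17.3 and 22.3 CPM, and in STEM libraries 7 to 12 they were 43.4, 45.4, 36.9, 30.5, 42.4 and 41.4 CPM. Even the lowest STEM library, library 10, was above the highest horse serum library. The mean went from 18.6 ± 2.16 to 40.0 ± 5.46 CPM (± SD over 6 libraries, here and below), a log2 fold change of 1.10 (SE 0.098, 95% interval 0.89 to 1.31, adjusted p = 1.26e-06), or 2.15-fold. By p-value, Jag1 was at rank 114 of the 14175 genes tested.

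Dll1 (ENSMUSG00000014773, chr17:15367354-15376872, minus strand) encodes a Delta-family ligand that myogenic cells present to their neighbours. It measured 45.7, 58.7, 60.6, 66.3, 58.5 and 54.9 CPM with horse serum and 86.4, 82.7, 93.3, 93.6, 90.6 and 92.0 CPM with STEM. The STEM libraries lay close together, with a coefficient of variation of 4.84% against 11.95% with horse serum, and none came down to the horse serum range. The mean rose from 57.5 ± 6.87 to 89.8 ± 4.34 CPM, a log2 fold change of 0.64 (SE 0.071, 95% interval 0.49 to 0.79, adjusted p = 9.8e-06). Of the Dll1 exon length, 20.5% is shared with exons of A930024N18Rik, a long noncoding RNA on the opposite strand. It is not among the genes listed with counts, so its level could not be checked. The strand setting of the counting is not given in the sources used here, so reads of that RNA cannot be told apart from Dll1 reads over those bases.

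Jag2 (ENSMUSG00000002799, chr12:112907819-112929776, minus strand), the other Jagged ligand, rose less. It was at 39.1, 39.7, 37.7, 36.2, 37.9 and 32.1 CPM with horse serum and at 51.4, 50.7, 46.6, 44.3, 53.1 and 50.8 CPM with STEM, with horse serum library 6 the lowest of all 12. The mean went from 37.1 ± 2.72 to 49.5 ± 3.32 CPM, a log2 fold change of 0.42 (SE 0.062, 95% interval 0.28 to 0.55, adjusted p = 0.000122). The interval of Jag2 lay wholly below that of Jag1, although the difference between the 2 genes was not itself tested. Dll3 and Dll4, the remaining canonical ligands, had too few counts to be tested.

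Levels were compared between genes in TPM, a unit in which counts are divided by exon length. The length is the union of all annotated exons, so exons not used in these cells would lower a gene's level, share and rank. Summed over the 3 ligands, the level was 47.5 ± 4.65 TPM with horse serum (38.9 to 52.9) and 76.9 ± 2.92 TPM with STEM (73.2 to 81.0), with no overlap. Dll1 made up most of it in both groups, 61.3% ± 3.06 with horse serum and 60.4% ± 3.38 with STEM. The share of Jag1 was 14.5% ± 1.93 with horse serum and 19.5% ± 2.45 with STEM, and that of Jag2 was 24.2% ± 2.78 and 20.1% ± 0.991. The Jag2 share in STEM, at 18.8% to 20.98%, lay below every horse serum library, at 21.4% to 28.9%, although its own level had risen, while the Jag1 shares of the groups overlapped.

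The 250 bases before annotated start sites of the Notch genes were searched for short motifs, in RefSeq sequences of GRCm38.p6. RefSeq promoter entries matched 7 of the 10 genes, with 10 windows in all, and Hes1, Hey1 and Heyl had none. Some windows lie within a gene. The Jag2 window has all 250 bases in exons of protein-coding genes, and the Numb windows at chr12:83876813-83877062 and chr12:83842359-83842608 lie inside Numb. The Notch1 window at chr2:26503823-26504072 lies inside Notch1, and the Dll1 window at chr17:15375824-15376073 lies inside Dll1. A motif missing from these says nothing about the sequence before the outer start of the gene. The motifs, chosen after the sequences had been seen, were the RBPJ core TGGGAA, its longer form GTGGGAA (which contains the core), the E-box CACGTG, and CACGCG, a sequence that Hes and Hey repressors are known to bind. Both strands were searched. The RBPJ core, its longer form and the E-box were in 0 of the 10 windows, whereas 21.6%, 5.42% and 6.02% of all 32851 windows of that length held them. CACGCG was in 3 of the 10 windows, and in 7.62% of all windows. The motifs were chosen with the sequences seen, and the windows were not matched for GC content. These shares can therefore show neither an excess nor a lack of any motif. CACGCG stood 249 and 171 bases before the start of Jag1, 68 bases before the outer start of Dll1 and 42 bases before the start of Notch2. The bases of these 3 windows that lie in no exon of a protein-coding gene are printed 5′ to 3′ on the gene's own strand, with CACGCG or its reverse complement in capitals, because they hold all the matches.
Jag1, chr2:137116645-137116770, minus strand: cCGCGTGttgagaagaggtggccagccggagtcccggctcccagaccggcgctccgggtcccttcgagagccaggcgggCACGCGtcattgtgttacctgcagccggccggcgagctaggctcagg
Dll1, chr17:15376933-15377182, minus strand: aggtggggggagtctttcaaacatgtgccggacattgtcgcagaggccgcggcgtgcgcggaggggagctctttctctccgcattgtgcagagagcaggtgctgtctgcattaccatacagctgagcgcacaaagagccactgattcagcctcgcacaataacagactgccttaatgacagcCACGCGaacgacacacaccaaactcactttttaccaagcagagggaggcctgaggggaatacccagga
Notch2, chr3:98013288-98013526, plus strand: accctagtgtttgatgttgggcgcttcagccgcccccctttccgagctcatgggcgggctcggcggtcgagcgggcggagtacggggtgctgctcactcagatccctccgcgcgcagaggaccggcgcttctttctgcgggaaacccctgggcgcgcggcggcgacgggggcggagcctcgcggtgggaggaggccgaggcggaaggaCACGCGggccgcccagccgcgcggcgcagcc
The Dll1 stretch lies within an exon of A930024N18Rik on the opposite strand. Jag2, which also rose, had no match in its window, which lies wholly in exons, and Notch2, which was not called, had 1. A match describes these letters in this window and does not show that a factor binds there.

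Among the receptors, Notch1 was higher with STEM. Notch1 (ENSMUSG00000026923, chr2:26457903-26516663, minus strand) was at 29.6, 30.3, 28.9, 33.6, 36.1 and 43.0 CPM with horse serum and at 44.5, 43.4, 51.8, 43.3, 59.9 and 66.9 CPM with STEM. The groups did not overlap, but horse serum library 6 reached almost the level of STEM library 10. The mean went from 33.6 ± 5.37 to 51.6 ± 9.88 CPM, a log2 fold change of 0.62 (SE 0.13, 95% interval 0.34 to 0.89, adjusted p = 0.0019). On the opposite strand, 0610009E02Rik shares 7.50% of the Notch1 exon length, and it was counted at 8 to 25 reads per library against at least 392 for Notch1.

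Notch3 (ENSMUSG00000038146, chr17:32120820-32166852, minus strand), the receptor best known from vascular smooth muscle and also made by satellite cells, was not called. Its levels were 67.6, 83.7, 76.7, 77.7, 94.9 and 133 CPM with horse serum and 92.7, 112, 120, 83.0, 153 and 157 CPM with STEM. Horse serum library 6 was above 4 of the 6 STEM libraries, and STEM library 10 was below the highest 3 horse serum libraries. The mean was 88.9 ± 23.4 CPM against 120 ± 30.6 CPM, a log2 fold change of 0.42 (SE 0.19, 95% interval 0.0016 to 0.85, adjusted p = 0.108). Without horse serum library 6 it was 0.58 (SE 0.18, adjusted p = 0.0253), and Notch3 was called although its groups still overlapped.

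Notch2 (ENSMUSG00000027878, chr3:98013527-98150361, plus strand) had the highest CPM of the 10 genes and was not called. It was at 141, 162, 156, 145, 177 and 218 CPM with horse serum and at 158, 174, 181, 143, 216 and 239 CPM with STEM. Most libraries of each group lay within the range of the other. The means were 166 ± 28.2 and 185 ± 36.04 CPM, a log2 fold change of 0.15 (SE 0.13, 95% interval -0.13 to 0.44, adjusted p = 0.396), and 0.24 without horse serum library 6 (adjusted p = 0.153).

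Within each group the 3 receptors were highest in the same libraries, while the order of the other libraries differed between them. STEM libraries 11 and 12 had the highest 2 levels of Notch1, Notch2 and Notch3 among STEM libraries, library 10 had the lowest, and horse serum library 6 had the highest of its group for all 3. The level of genes with long transcripts differed between these libraries too. The median level of genes in the top quartile of transcript length, relative to the bottom quartile, was highest in horse serum library 6 (0.17 on the log2 scale), STEM library 12 (0.11) and STEM library 11 (0.096), and in STEM library 10 it was -0.10. The receptors have exon lengths of 14232 bases for Notch1, 10782 for Notch2 and 8089 for Notch3, the longest of the 10 genes. With offsets for GC content and length, chosen after the data had been seen, the log2 fold change was 0.52 for Notch1, 0.05 for Notch2 and 0.33 for Notch3, and Notch1 alone of the 3 was called. Library 6 differed in the summed myotube and proliferation markers as well, and the part of either in the receptor levels was not tested beyond these offsets.

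As a share of the summed receptor level within a library, Notch2 made up 53.9% ± 1.82 of the 3 receptors in TPM with horse serum (50.95% to 55.7%) and 48.5% ± 1.46 with STEM (46.4% to 50.1%), with no overlap. The Notch3 share was 37.9% ± 2.02 and 41.3% ± 1.99, and the Notch1 share was 8.26% ± 0.677 and 10.3% ± 0.767. The ranges of both overlapped between the groups. The summed level itself overlapped broadly, at 62.5 ± 18.3 TPM (47.1 to 97.7) with horse serum and 77.6 ± 16.4 TPM (57.6 to 98.5) with STEM. Notch4, which is mainly an endothelial receptor, averaged 0.85 CPM in the control group and 0.87 CPM after STEM, and was not called.

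**Figure D2:**
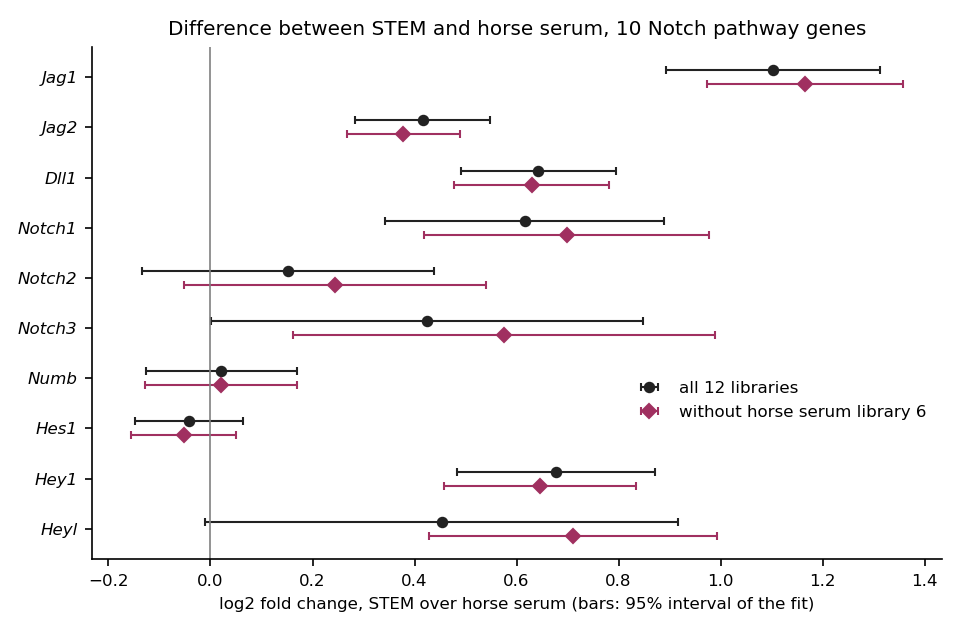
Log2 fold change of each Notch gene, STEM over horse serum (horizontal axis), with the 95% interval of the edgeR fit as bars, from all 12 libraries (black circles) and without horse serum library 6 (red diamonds). Jag1 lies farthest from 0, at 1.10, and Notch3 and Heyl move up most when library 6 is left out, from 0.42 to 0.58 and from 0.45 to 0.71.

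Numb (ENSMUSG00000021224, chr12:83794034-83921934, minus strand), which encodes an endocytic adaptor that lowers Notch receptor at the membrane, was not called. Horse serum libraries were between 18.3 and 22.4 CPM with a median of 19.6, and STEM libraries between 17.6 and 22.6 CPM with a median of 19.9. The log2 fold change was 0.02 (SE 0.070, adjusted p = 0.836), with a 95% interval of -0.13 to 0.17.

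The 3 targets did not move as a group. Hes1 (ENSMUSG00000022528, chr16:30064384-30067796, plus strand) encodes a basic helix-loop-helix repressor that answers to Notch and to other signals. Its levels were 54.9, 54.7, 58.3, 58.8, 54.4 and 53.9 CPM with horse serum and 57.1, 58.1, 54.1, 55.2, 50.7 and 49.7 CPM with STEM. The groups overlapped, and the spread was small, with coefficients of variation of 3.85% and 6.21%. The log2 fold change was -0.04 (SE 0.050, adjusted p = 0.527), with a 95% interval of -0.15 to 0.063.

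Hey1 (ENSMUSG00000040289, chr3:8663359-8667256, minus strand), a repressor of the Hey family, was higher with STEM. It was at 11.03, 9.18, 10.3, 12.9, 9.66 and 9.43 CPM with horse serum and at 14.9, 15.6, 16.6, 19.3, 16.7 and 16.9 CPM with STEM. The highest horse serum library, library 4, was below the lowest STEM library, library 7. The mean went from 10.4 ± 1.37 to 16.7 ± 1.49 CPM, a log2 fold change of 0.68 (SE 0.091, 95% interval 0.48 to 0.87, adjusted p = 5.17e-05). The interval of Hey1 did not meet that of Hes1, though no test of the difference between the genes was run.

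Heyl (ENSMUSG00000032744, chr4:123233556-123249875, plus strand), another Hey-family repressor, turned on 1 library. It was at 7.95, 11.3, 13.5, 11.7, 11.1 and 23.5 CPM with horse serum and at 16.3, 15.3, 19.9, 15.1, 20.3 and 22.3 CPM with STEM. The value of 23.5 CPM in horse serum library 6 was the highest of all 12, and the other 5 horse serum libraries were all below the STEM libraries. With all libraries the log2 fold change was 0.45 (SE 0.22, 95% interval -0.011 to 0.92, adjusted p = 0.118). Without library 6 it was 0.71 (SE 0.13, adjusted p = 0.00041), and the groups no longer overlapped. The summed level of the proliferation markers was also highest in library 6 and that of the myotube markers lowest, which does not hold for every marker (Top2a and Cdk1 were highest in horse serum library 1), and their part in the Heyl level was not tested.

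The genes whose pattern over the 12 libraries was most like that of each target were sought by the root mean square difference of log2 CPM after each gene was centred on its own mean. For Hes1 they were Rnf6, Yipf4 and Anxa6 (0.041, 0.044 and 0.044, against a median of 0.22 over all tested genes). For Hey1 they were BC034090, B3gnt8 and Psmb10 (0.089, 0.10 and 0.11, against a median of 0.41), and Dll1 came nearest among the Notch genes, at rank 21 with 0.16. For Heyl they were Pdgfra, 3110001I22Rik and Zfp709 (0.15, 0.15 and 0.16, against a median of 0.48), and Notch3 came nearest among the Notch genes, at rank 68 with 0.22. These differences describe likeness of level over libraries, which share treatment and library effects.

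On the TPM scale, Hes1 had the highest level of the 10 genes in both groups, 58.7 ± 3.84 TPM with horse serum and 58.1 ± 4.22 TPM with STEM. With horse serum the order went on with Notch2 (33.5 ± 8.58), Dll1 (29.2 ± 3.86), Notch3 (24.0 ± 8.55), Jag2 (11.4 ± 0.465), Numb (10.8 ± 1.21), Jag1 (6.88 ± 1.32), Hey1 (6.81 ± 0.725), Heyl (5.66 ± 2.88) and Notch1 (5.10 ± 1.23). Of the neighbours in this order, Hes1 and Notch2 did not overlap, nor did Notch3 and Jag2, while every other pair did. With STEM, Dll1 at 46.4 ± 2.02 TPM stood above Notch2 at 37.5 ± 7.02 TPM, though these overlapped, and Jag1 at 15.0 ± 2.19 TPM stood beside Jag2 at 15.5 ± 1.25 TPM. The same 2 gaps separated neighbours with STEM, below Hes1 and below Notch3.

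**Figure D3:**
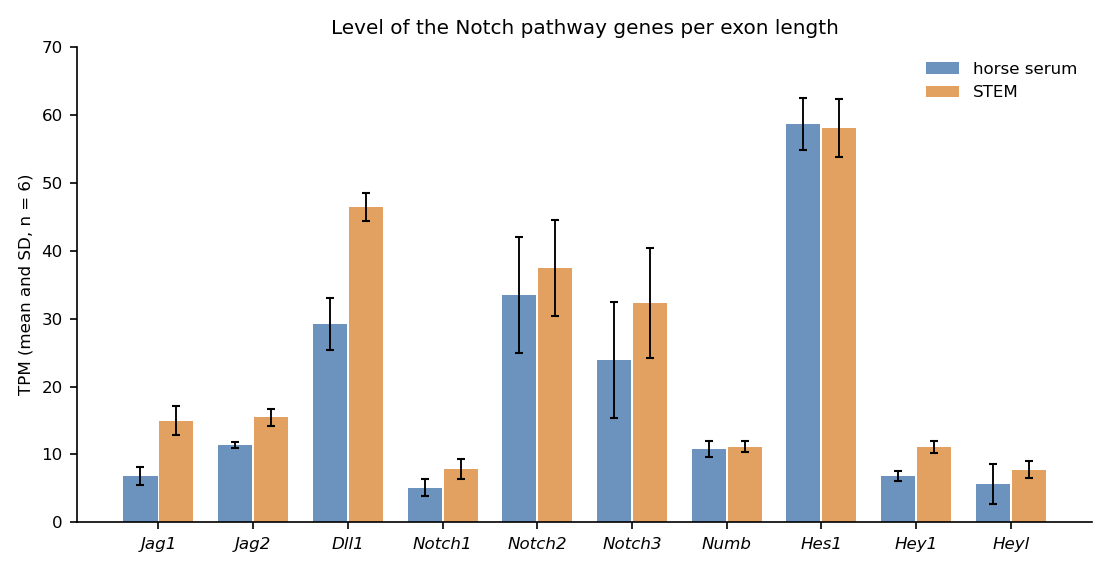
Mean level of the 10 Notch genes in TPM (vertical axis from 0) with horse serum (blue) and STEM (orange), with the SD over 6 libraries as error bars. Hes1 is highest at 58.7 and 58.1 TPM, Dll1 goes from 29.2 to 46.4 TPM, and Notch1 is lowest with horse serum at 5.10 TPM.

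A wider list of 57 pathway genes, which includes the 10, was used to describe the rest of the pathway. Of these, 51 were tested, 16 were higher and 6 lower with STEM, and the median log2 fold change was 0.11. Among the 41 tested genes outside the 10, 11 were higher and 6 lower, with a median of 0.05. Together 17 of these 41 were called, beside 36.4% of all tested genes, and 6 of the 41 showed no overlap between the groups, beside 17.2% of all tested genes. Without horse serum library 6, 21 of the 41 were called, beside 50.8% of all tested genes, 12 of them higher, beside 26.3%, and 9 lower. These shares are near those of all genes, and the counts by role that follow come from few genes each and describe the list only. Dll3, Dll4, Mfng, Dtx1, Hes5 and Hey2 had too few counts to be tested.

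Genes of receptor cleavage were higher in 4 of 10 cases, and 0 of the 10 were called lower, although Psen2 (-0.26) and Aph1c (-0.51) were called lower without horse serum library 6. Ncstn, the subunit of gamma-secretase that receives the substrate, went from 47.7 ± 4.40 to 59.4 ± 4.38 CPM (log2 fold change 0.31, SE 0.066, adjusted p = 0.00184). Furin, the protease that cuts the receptor on its way to the membrane, was at 0.60 (adjusted p = 0.00562). Aph1a, another gamma-secretase subunit, was higher as well, at 0.16 (adjusted p = 0.0179). Of the glycosylation genes tested, Poglut1, which adds glucose to the receptor, was higher (0.33, adjusted p = 0.00192), as was Rfng (0.30, adjusted p = 0.0296), and Lfng was lower (-0.41, adjusted p = 0.0121). Rfng and Lfng both encode Fringe enzymes, which tune the response of a receptor to its ligands.

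The largest fall on the list was in Neurl1b, which encodes an E3 ubiquitin ligase that promotes endocytosis of ligands. It was at 18.8, 11.1, 13.1, 14.7, 13.7 and 18.4 CPM with horse serum and at 7.87, 7.60, 7.17, 6.26, 7.22 and 7.34 CPM with STEM. No STEM library reached the horse serum range, and the log2 fold change was -1.05 (SE 0.12, adjusted p = 1.68e-05). Of the other 9 tested genes of endocytosis, Numbl, the paralog of Numb, was called higher, at 0.14 (SE 0.044, adjusted p = 0.0207), and the remaining 8, with Numb and Mib1 among them, were not called. Without horse serum library 6, Dtx3, a member of the Deltex family, was called lower (-0.21, adjusted p = 0.00167).

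Of the 16 nuclear genes, 7 were called, beside 36.4% of all tested genes, 4 of them lower and 3 higher. Rbpj, the DNA-binding partner of the cleaved receptor, was at 67.1, 65.7, 58.9, 58.1, 57.4 and 42.0 CPM with horse serum and at 38.5, 44.1, 39.7, 34.5, 37.5 and 43.8 CPM with STEM. Only horse serum library 6 fell in the STEM range. The log2 fold change was -0.55 (SE 0.099, adjusted p = 0.000597), and -0.63 without that library. Kat2b, an acetyltransferase that works as a coactivator, was also lower (-0.23, adjusted p = 0.00097), as were the Groucho-family corepressors Tle1 (-0.38, adjusted p = 0.00323) and Tle2 (-0.40, adjusted p = 0.00594). Hdac1, a histone deacetylase found in corepressor complexes, was higher (0.53, adjusted p = 0.00572). Maml1, a coactivator of the cleaved receptor, was higher too, at 0.32 (adjusted p = 0.0471). Without horse serum library 6, the coactivator Crebbp was also called higher (0.47, adjusted p = 0.033). Aph1a, Psen2, Aph1c, Rfng, Numbl, Mib1, Dtx3, Notch4, Crebbp and Maml1 fell outside the rule for named genes and were added after their values were seen.

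Nrarp, a target that in turn feeds back on the receptor complex, showed a difference close in size to that of Jag1. It was at 3.29, 3.70, 3.60, 4.24, 4.23 and 5.69 CPM with horse serum and at 8.03, 8.36, 9.997, 9.94, 9.30 and 7.34 CPM with STEM, again without overlap. The mean went from 4.13 ± 0.851 to 8.83 ± 1.08 CPM (log2 fold change 1.08, SE 0.13, adjusted p = 2.34e-05). Among the 4 tested targets, Nrarp and Hey1 were therefore called higher, while Hes1 and Heyl were not called.

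**Figure D4:**
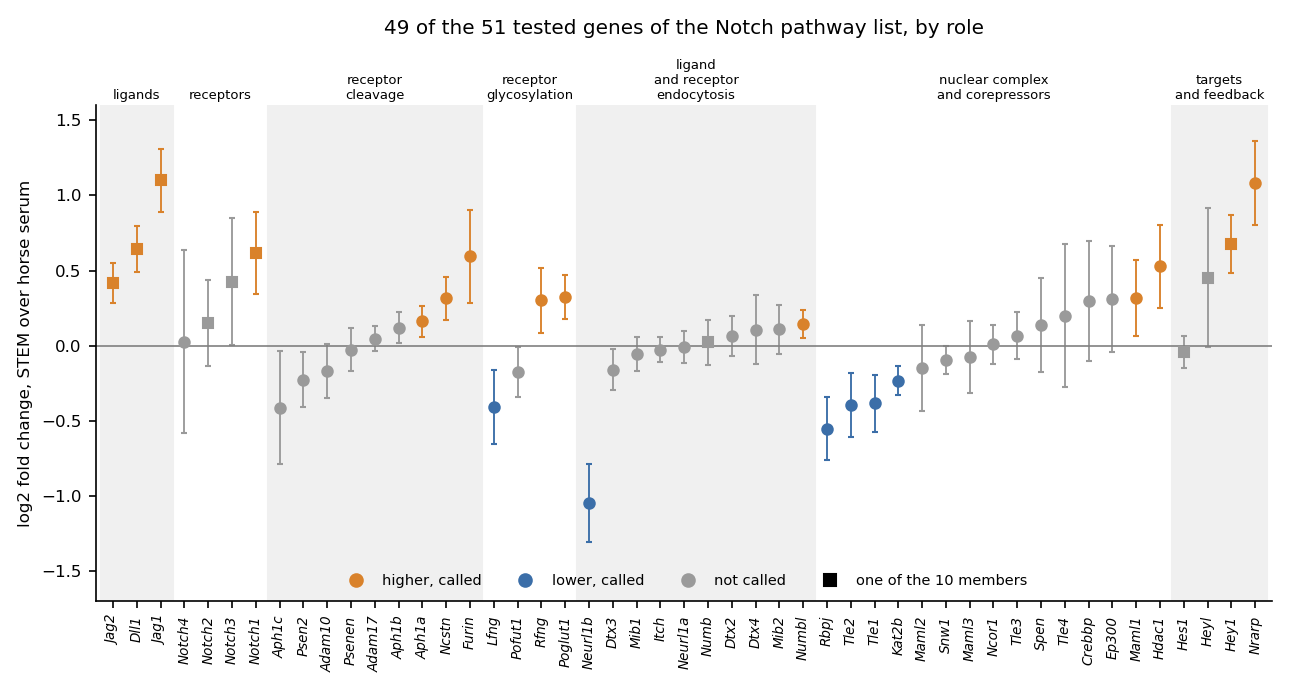
Log2 fold change, STEM over horse serum (vertical axis), of 49 of the 51 tested genes of the wider list, grouped by role, with the 95% interval of the edgeR fit. Orange is called higher, blue called lower, grey not called, and squares are the 10 Notch genes, and all 3 tested ligands are higher while Neurl1b is lowest at -1.05, and the nuclear group holds called genes on both sides of 0, from Rbpj at -0.55 to Hdac1 at 0.53.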

How the data were processed

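Total RNA was depleted of ribosomal RNA and made into stranded libraries, 6 for horse serum and 6 for STEM. The authors deposited raw counts of reads per Ensembl gene without normalization, on GRCm38, and 0 columns of the table lacked a sample. The submitters' processing notes name STAR 2.7.3a, featureCounts 1.6.3 and DESeq2 1.26.0. The annotation release and the strand setting of the counting are not given in the sources used here. The Notch genes, whose rule uses symbols alone, the wider list and the marker lists were all drawn up with earlier results of these data known.

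Groups were taken from the sample labels. Symbols and exon lengths came from GENCODE M21, which held 55141 of the listed genes, and the genes outside it had 0.0358% of the counts. Counts were fitted in edgeR 4.0.16 under R 4.3.3 (TMM, filterByExpr, robust glmQLFit and glmQLFTest, no covariate), with Benjamini-Hochberg adjustment over 14175 genes. CPM used TMM library sizes, and log2 CPM a prior count of 2. TPM used the union of exons. Intervals are 95% intervals of the fitted log2 fold change, and a gene of up to 3 counts was treated as at the floor, which covers counting error only. Within groups the closest pair of libraries, STEM 7 and 8, had a chi-square per degree of freedom of 3.29, so no library was treated as deposited again.

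Named genes were the 10 members, up to 12 other called genes of the wider list with the lowest p-values, its untested genes by name, and the 3 genes nearest in pattern to each of Hes1, Hey1 and Heyl. Not every gene it names is given here. Alternatives were DESeq2 1.42.0, limma-voom (limma 3.58.1), DESeq2 size factors, total counts, no filter, at least 10 counts in every library, each library left out, and, added after the data had been seen, offsets for GC content and length. On simulated counts of the same comparison over 14175 genes, edgeR recovered 98 of 100 genes changed 4-fold and 92 of 100 changed 2-fold, and 4.52% of the genes it called were false. For DESeq2 these values were 100, 92 and 14.3%, and for limma-voom 97, 91 and 4.08%.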

Additional observations from a re-analysis of the deposited data

Results flagged for a closer look

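In horse serum library 6, 4 genes had a level set far from the other 5 libraries of the group by Dixon's criterion (critical value 0.625 for 6 samples). Heyl was at 23.5 CPM there against 7.95 to 13.5 CPM in the others. Hdac1 was at 34.5 CPM against 18.6 to 21.4 CPM, Furin at 66.1 CPM against 33.8 to 45.2 CPM, and Poglut1 at 58.5 CPM against 41.7 to 47.6 CPM. Of 44 groups of libraries examined, these 4 met the criterion, all through library 6, while chance marks about 1 in 20 groups.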

How the results depend on the processing

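The number of Notch genes called was 5 under the 7 alternatives of normalization, filter, test and GC and length offsets, and numbered 5 to 7 when each library was left out. The wider list gave 22 calls, 20 to 23 under the alternatives and 20 to 28 with a library left out, and all tested genes gave 5155 calls, 4648 to 5318 and 4459 to 7245. The highest counts all came without horse serum library 6, when Notch3 (0.58) and Heyl (0.71) were called. Numb changed sign, to -0.0017 with GC and length offsets, which were added after the data had been seen, and to -0.016 without STEM library 12, with no call in either, and the cause was not tested. With a library left out, the log2 fold change was 1.06 to 1.17 for Jag1, 0.38 to 0.45 for Jag2, 0.58 to 0.69 for Dll1, 0.53 to 0.70 for Notch1, 0.63 to 0.75 for Hey1, 0.07 to 0.24 for Notch2, 0.33 to 0.58 for Notch3, 0.34 to 0.71 for Heyl, -0.07 to -0.02 for Hes1 and -0.016 to 0.061 for Numb. DESeq2 size factors and total counts moved the median of all genes by -0.0049 and 0.019. Of 418 values of single genes under alternatives, 414 kept their direction and side of the threshold. These values covered the 10 Notch genes and 12 called genes of the wider list, picked for the lowest p-values in the main fit. Genes picked in that way are likely to keep their call, so this count is no measure of stability. No paired analysis was run, because the labels do not say whether libraries of the groups belong in pairs.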
